A study of Drosophila melanogaster with 24 samples.

Results

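Embryos were compared with female pupae of the fruit fly Drosophila melanogaster, 4 samples against 4 samples of the 24 in the series, chosen by their sample titles. The embryos, of both sexes and of many ages, came from plates on which eggs had been laid for 24 h. The female pupae were picked 0 to 1 h old as white prepupae, the first stage inside a pupal case, then kept at 25 °C for 12 h. All groups were of the isogenic line WI89, and the labels name no mutation, transgene or treatment. The other groups, read here only where they bear on the probes that differed, were male pupae, mixed-sex pupae made from equal amounts of male and female pupal RNA, and heads and abdomens of adult males 24 to 48 h old, with 4 samples each. The series title names alternative splicing in sexes, stages and tissues as its subject. In this comparison the pupal side holds no male RNA, while the embryos hold both sexes. The arrays had 22575 spots, and each spot is treated as 1 probe and called by its number in spot order. No gene or sequence is paired with a probe in the tables used here, so no marker gene could be read to check the labelled stages, and the level and the splicing of a transcript could not be told apart.

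The fly embryo starts on RNA that the mother placed in the egg, which is cleared while the embryo's own genes are switched on to lay down the body plan and differentiate the larval organs. A pulse of the steroid hormone ecdysone then ends larval life, and around pupariation larval tissues such as the salivary glands and midgut are broken down while imaginal discs, the pouches of cells kept through larval life, unfold into adult legs, wings and eyes. Whole animals were used at both stages, so in each probe fewer cells of a type and less RNA per cell cannot be told apart.

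Median signal over local background was 20.7, 6.77, 144 and 121 scanner units in embryo replicates 1 to 4, and 68.7, 11.0, 65.0 and 23.2 units in female pupae replicates 1 to 4. Embryo replicates 3 and 4 and female pupae replicates 1 and 3 were labelled with the dye Cy3 and the others with Cy5. The signal was thus stronger in Cy3 in both groups, and in Cy3 the embryos were brighter than the pupae. In embryo replicate 2, 86.3% of probes exceeded the detection level against 98.0% to 100% in the other 7 samples. The 24 samples lay on 12 arrays of 1 Cy3 and 1 Cy5 sample, and embryo replicate 1 and female pupae replicate 1 shared an array. Embryo replicates 3 and 4 and female pupae replicate 4 lay on brighter arrays and the other 5 samples on dimmer ones, so that among embryos dye and array brightness cannot be told apart. Over all probes, Pearson's r of dye-adjusted log2 signals was 0.858 to 0.970 between embryo samples, 0.883 to 0.935 between female pupal samples and 0.735 to 0.847 between the groups. Precision is limited by the number of arrays, and the labels do not say whether replicates came from separate cultures. The p-values reflect the spread within groups, pooled over all 24 samples and moderated across probes, and it may be technical.

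Of the 22575 probes, 2275 differed between embryos and female pupae at an adjusted p of 0.05 (10.1%). Embryos were higher at 1259 probes, 5.58% of those tested, and female pupae at 1016, or 4.5%. The direction of the majority was not stable. Embryo-higher probes were 55.3% of the calls, but 44.2% (577 against 727 probes) with each sample scaled to its 75th percentile, 49.8% with cyclic loess, 47.5% with the 8 samples alone and 49.9% (1020 against 1023) without embryo replicate 1. The share was 43.3% in Cy3 samples alone, 65.9% in Cy5 samples alone, 48.3% on bright arrays alone, 60.5% on dim arrays alone and 49.3% without the array that embryos and female pupae shared. Changes toward pupae were the larger ones. The median size was 0.58 log2 units, 1.496-fold, at embryo-higher probes and 0.68 units, 1.61-fold, at pupa-higher probes, and the 90% quantiles of size were 1.19 and 2.04 units. At least 1 log2 unit separated the groups at 190 embryo-higher and 308 pupa-higher probes, at least 2 units at 25 and 105, at least 3 units at 1 and 25, and at least 4 units at 0 and 7. Folds are on a log2 scale with a constant of 50 scanner units added to the signal, which understates changes of dim probes. With a constant of 10 the counts at 2 units were 64 and 186.

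The 2 directions differed in where they lay along the brightness range. When the probes were split into 5 bins of 4515 by their mean log2 signal over all 24 samples, 1.95% of the dimmest bin and 24.9% of the brightest were called. Embryo-higher probes were 69.3% of the calls in the dimmest bin, then 71.5%, 60.8% and 53.7%, and 50.4% in the brightest. In the brightest bin, with 568 embryo-higher and 558 pupa-higher probes, the median size was 0.75 units toward embryos and 1.04 toward pupae. All 105 pupa-higher probes of at least 2 units lay in that bin, against 19 of the 25 embryo-higher ones. More pupal than embryo samples enter the mean that set the bins. A probe high in all pupae is therefore placed brighter than one equally high in embryos alone. The part of this placement in the difference between the directions was not tested. The median standard error of a change was 0.06 in the dimmest and 0.17 in the brightest bin.

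**Figure D1:**
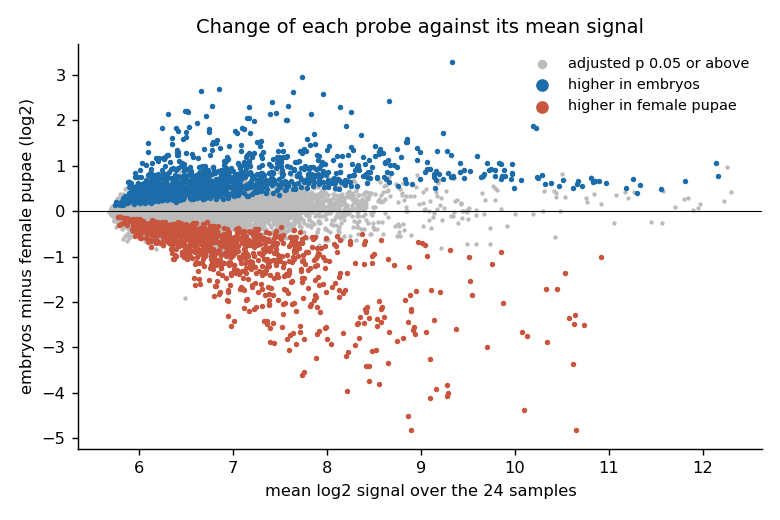
Change of each of the 22575 probes, embryos minus female pupae in log2 units, against its mean log2 signal over 24 samples. Grey points did not pass an adjusted p of 0.05, blue points are the 1259 embryo-higher and red points the 1016 pupa-higher probes; the red points reach -4.83 and the blue ones 3.28.

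Among 21900 probes with a usable spot in all 8 samples, the 4 embryo and 4 female pupal values did not overlap at 2952, which is 13.5%, and embryos were above at 1570 of these. Of the called probes with complete values, 1100 of the 1226 embryo-higher ones (89.7%) and 923 of the 998 pupa-higher ones (92.5%) did not overlap. Conversely, 929 probes did not overlap and did not pass the test. No probe was below the detection level in every sample of a group.

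The strongest pupal signal relative to embryos was at probe 10821, whose dye-adjusted log2 signals were 7.79, 6.54, 7.30 and 7.10 in embryos and 12.27, 11.66, 11.89 and 12.23 in female pupae. Every pupal sample lay more than 3 units above every embryo sample, and the change was -4.83 (SE 0.20, limma adjusted p = 2.23e-12), 28.4-fold. This probe had the smallest p of all probes. Probe 19839 read 6.54, 6.05, 6.27 and 6.27 in embryos and 10.89, 11.20, 11.21 and 11.13 in female pupae (change -4.82, SE 0.22, limma adjusted p = 2.95e-12). Its embryo samples sat close together, near the median over all probes, which was 6.20 to 6.21 in the embryo samples. In scanner units its signal over background was 31.6, 4.04, 163 and 136 in embryos against 4182, 1024, 4793 and 1962 in pupae.

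Probe 2774 behaved alike, with 6.42, 5.89, 6.27 and 6.24 in embryos and 10.52, 10.92, 10.61 and 10.87 in female pupae, and a difference of -4.52 (SE 0.21, limma adjusted p = 1.17e-11). Probe 1096 read 7.42, 6.45, 7.06 and 6.95 in embryos and 10.83, 10.86, 10.68 and 11.93 in pupae, so that pupal replicate 4 stood above the other 3 pupal samples. The change there was -4.11 (SE 0.26, limma adjusted p = 2.65e-10). At probe 18585 embryos had 7.61, 7.16, 7.42 and 7.29 and pupae 11.29, 11.25, 11.96 and 11.25, with replicate 3 as the high pupal sample, and the change was -4.07 (SE 0.25, limma adjusted p = 1.10e-10). These are the largest changes among called probes with a usable spot in all 8 samples and no overlap, and probes 10859 (-4.37) and 11949 (-3.81), with 3 usable female pupal spots each, were left out by that rule; 11949 is named after its value was seen. The following 7 by size were 18146, 8495, 1553, 15007, 6097, 6497 and 19873, with changes from -4.00 to -3.54 and limma adjusted p of at most 1.70e-09.

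Toward embryos the largest change was at probe 10136, whose dye-adjusted log2 signals were 10.41, 10.66, 11.33 and 11.23 in embryos and 7.63, 7.61, 7.91 and 7.37 in female pupae. The groups were over 2 units apart at their closest, and the change was 3.28 (SE 0.23, limma adjusted p = 9.20e-10), 9.69-fold. In scanner units its signal was 1489, 635, 7696 and 7041 in embryos and 300.1, 50.3, 312 and 99.3 in pupae. Probe 14901 read 10.19, 10.08, 10.62 and 10.71 in embryos and 8.10, 6.90, 6.98 and 7.83 in pupae. Here the pupal samples fell into a higher and a lower pair, each of 1 Cy3 and 1 Cy5 sample, and the change of 2.95 had a larger error (SE 0.40, limma adjusted p = 1.56e-05).

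Probe 7800 had 8.27, 7.85, 9.18 and 9.15 in embryos and 5.86, 6.13, 5.75 and 5.96 in female pupae, with a difference of 2.69 (SE 0.23, limma adjusted p = 1.95e-08). At probe 7041 the embryos had 9.53, 9.54, 8.37 and 8.49 and the pupae 7.10, 6.03, 6.15 and 6.07, 2.65 higher in embryos (SE 0.28, limma adjusted p = 4.10e-07). The high pupal sample there, replicate 1, was on the array that also held embryo replicate 1, which read 9.53, and the part of the shared array in this value was not tested. Without both samples of that array the probe stayed past the threshold (limma adjusted p = 7.52e-07). Probe 16329 had 8.63, 8.42, 9.73 and 9.39 in embryos and 6.27, 6.36, 6.40 and 6.61 in pupae, with a difference of 2.63 (SE 0.26, limma adjusted p = 1.85e-07). The other 7 were 10523, 10037, 5416, 17726, 8079, 7894 and 11550, with changes from 2.58 to 2.30 and limma adjusted p of at most 2.51e-05. These 24 probes, 12 in each direction chosen by that rule, stayed past the threshold with the same sign under all 31 alternative settings, with adjusted p of at most 0.0203.

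**Figure D2:**
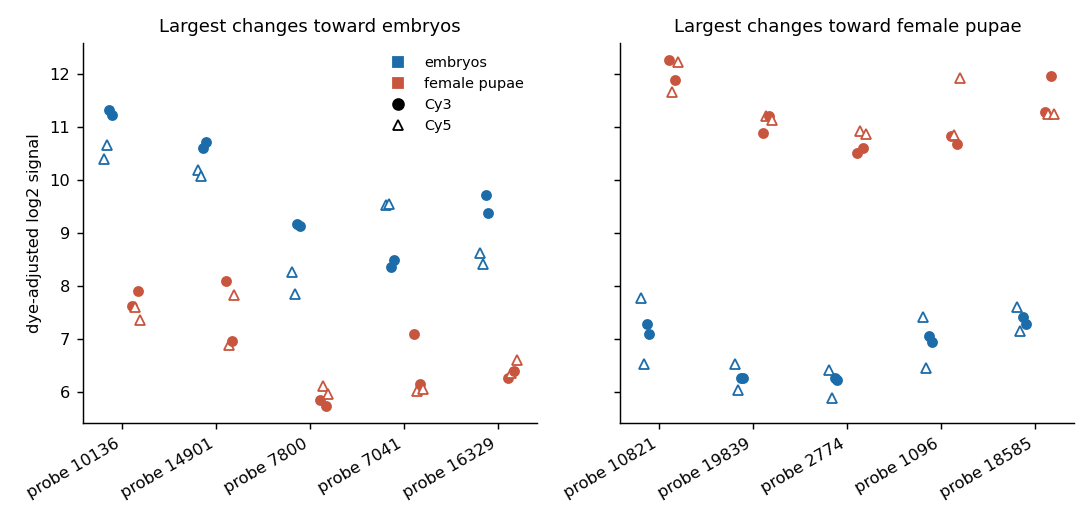
Dye-adjusted log2 signal of the 5 probes that changed most each way among called probes with 8 usable spots and no overlap, in each of the 4 embryo samples (blue) and 4 female pupal samples (red), with filled circles for Cy3 and open triangles for Cy5. The groups do not overlap at any of the 10 probes, and at probes 10136, 14901, 7800, 7041 and 16329 the Cy3 and Cy5 embryo samples form separate pairs.

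The embryo samples were less alike than the pupal ones at the probes where embryos were high. At the complete embryo-higher probes the median SD was 0.204 in embryos and 0.129 in female pupae, and the SD exceeded 0.5 at 72 probes in embryos against 6 in pupae. At the pupa-higher probes the medians were 0.141 in embryos and 0.160 in pupae, and over all complete probes 0.125 and 0.119. The test pooled the spread of a probe over all groups, so its errors can be too small where embryos varied more. At all 12 of the largest embryo-higher probes the 2 Cy3 embryo samples and the 2 Cy5 embryo samples did not overlap, with the Cy3 pair above at 9 and the Cy5 pair above at 3. Over the 1250 embryo-higher probes complete in embryos the Cy3 pair lay above the Cy5 pair at 20.7% and below it at 47.3%, against 31.0% and 27.1% of all probes. Dye had been adjusted for over all 24 samples, but the Cy3 embryos were also those on bright arrays, and neither dye nor brightness was separated from a difference between the RNA of these embryo samples.

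The change was therefore also read in each dye. The 6 Cy3 and 6 Cy5 group means were fitted apart, with 2 embryo against 2 female pupal samples in each. The Cy3 samples alone called 796 embryo-higher and 1043 pupa-higher probes, and the Cy5 samples alone called 820 and 424. In the Cy5 samples, which had no part in choosing them, 84.8% of the Cy3 embryo-higher probes and 84.3% of the Cy3 pupa-higher probes had the same sign, where 47.6% of all probes were positive and 52.4% negative. Read the other way, the sign held at 77.8% of the probes called toward embryos in Cy5 and at 94.6% of those called toward pupae in the Cy3 samples, where 53.3% of all probes were positive and 46.7% negative. Both dyes called the same 250 probes toward embryos and the same 339 toward pupae. The Cy5 pupa-higher probes changed by a median of -0.96 in Cy5 and -1.59 in Cy3. At the Cy3 pupa-higher probes the medians were -1.003 in Cy3 and -0.30 in Cy5, so these changes were larger in Cy3 in both readings. Toward embryos each list was larger in the dye that called it, with medians of 0.86 in Cy3 and 0.28 in Cy5 for the Cy3 list and 0.64 in Cy5 and 0.34 in Cy3 for the Cy5 list. Of these 8 samples the Cy3 and Cy5 sets shared 1 array, that of embryo and female pupae replicate 1.

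**Figure D3:**
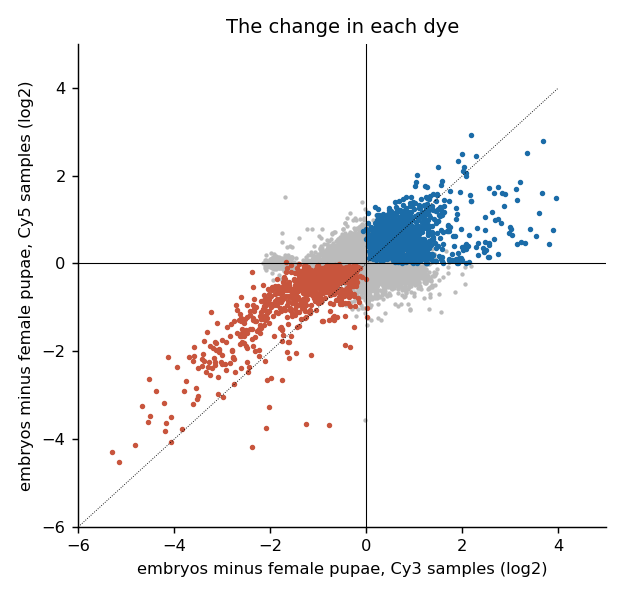
Change of each probe, embryos minus female pupae in log2 units, in the Cy3 samples (horizontal) and in the Cy5 samples (vertical), with the embryo-higher probes in blue, the pupa-higher probes in red, the other probes in grey and equal change as a dotted line. The red points have a median change of -0.99 in Cy3 and -0.43 in Cy5, and the blue points 0.57 and 0.51.

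The shared array gave a second reading. With both of its samples left out, 826 embryo-higher and 851 pupa-higher probes were called. On the array itself embryo replicate 1 was above female pupae replicate 1 at 99.0% of the 825 embryo-higher probes with a value and below it at 97.2% of the 851 pupa-higher probes, after the dye difference of the other 22 samples was taken off. Of all probes 46.6% were positive on this array. The median change was 0.67 in the other samples and 0.79 on the array at embryo-higher probes, and -0.80 and -0.69 at pupa-higher probes.

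The probes that separated embryos from female pupae were then followed through the other groups. In embryos the median log2 signal of the 1259 embryo-higher probes was 7.17 ± 0.10 (SD of the sample medians, n = 4), and in female pupae it was 6.52 ± 0.05. They stayed low in the other pupae, with 6.48 ± 0.05 in male and 6.50 ± 0.06 in mixed-sex pupae, and were a little higher in adults, where heads had 6.58 ± 0.05 and abdomens 6.65 ± 0.05 (SD, n = 4 each). The 1016 pupa-higher probes had 6.38 ± 0.07 in embryos and 7.23 ± 0.10 in female pupae (SD, n = 4 each). In male pupae they had 6.94 ± 0.12 and in mixed-sex pupae 7.02 ± 0.16, with 6.59 ± 0.07 in heads and 6.55 ± 0.09 in abdomens (SD, n = 4 each). Of the 4 other groups, the pupal samples at 6.84 to 7.18 all lay above the adult samples at 6.46 to 6.68. Over all probes the sample medians differed by under 0.1 log2 units, which the quantile normalization fixes in advance. Embryos and female pupae chose these probes, so their own levels are a description.

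**Figure D4:**
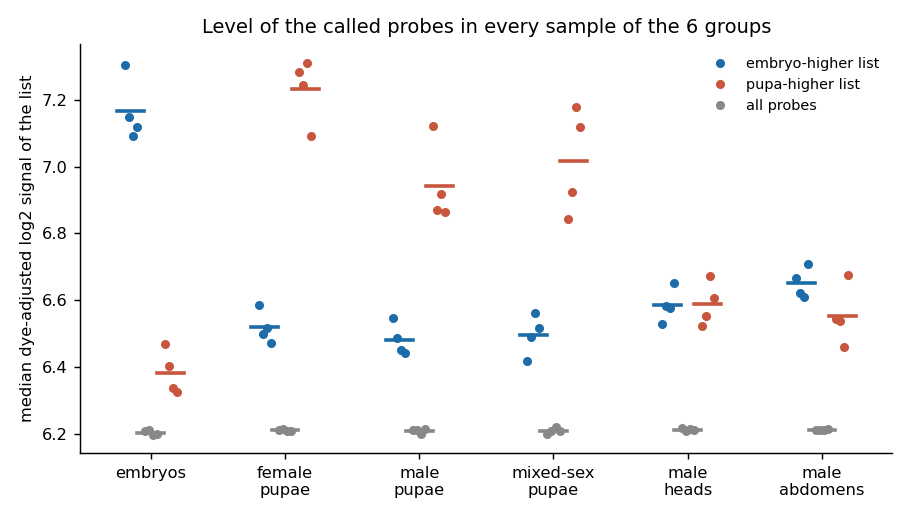
Median dye-adjusted log2 signal of the 1259 embryo-higher probes (blue), the 1016 pupa-higher probes (red) and all 22575 probes (grey) in each sample of the 6 groups, with a line at the mean of 4 samples. The blue points fall from 7.17 in embryos to between 6.48 and 6.65 elsewhere, and the red points are highest in the 3 pupal groups.

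Probe by probe, male pupae lay nearer to female pupae than to embryos at 1211 of the 1259 embryo-higher probes (96.2%) and at 713 of the 1016 pupa-higher probes (70.2%), against 55.9% of all probes. Male heads lay nearer to female pupae at 75.9% of the embryo-higher probes and 32.6% of the pupa-higher ones, against 55.0% of all. Male abdomens did so at 73.5% and 26.2%, against 55.8% of all. Male pupae lay between embryos and female pupae at 945 of the 1016 pupa-higher probes and at 34.2% of the embryo-higher ones, against 33.8% of all, and below both at 64.6% of the embryo-higher probes. Of all probes, 39.5% had male pupae below both. Female values chose the probes, which favours a place between the groups in either list. The pupa-higher list showed such an excess, while the embryo-higher list stayed near the share of all probes. The part of this choice in the pupa-higher excess was not tested.

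Male pupae were compared with the mean of adult male heads and abdomens, which shares no sample with embryos and female pupae but does share arrays. Male pupae replicate 2 lay with embryo replicate 4, male pupae replicate 3 with female pupae replicate 4, head replicate 3 with female pupae replicate 3 and head replicate 4 with embryo replicate 2. Samples of an array had an estimated correlation of 0.489, and a random array block gave 3234 calls between embryos and female pupae. Of its pupa-higher calls 45.8% were higher in male pupae, against 7.36% of all probes. Of its embryo-higher calls 21.2% were higher in adults, against 9.50% of all probes. Without that block 14.5% of all probes differed, 5.8% being higher in male pupae and 8.67% in the adult tissues. Here and below, a call against or toward the adult tissues refers to their mean, so either tissue alone can carry it. Of the 1016 pupa-higher probes, 472 were higher in male pupae (46.5%) and 125 in the adult tissues (12.3%). These 472 were 36.1% of all probes that were higher in male pupae. Of the 1259 embryo-higher probes the order was the reverse, with 99 higher in male pupae (7.86%) and 297 higher in the adult tissues (23.6%), which were 15.2% of all adult-higher probes. The median change, male pupae minus adults, was 0.25 over the pupa-higher probes, -0.04 over the embryo-higher probes and 0.0019 over all.

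The shares grew with the size of the change between embryos and female pupae. Of the pupa-higher probes, 33.5% of the 708 that changed by under 1 log2 unit, 69.0% of the 203 between 1 and 2 and 90.5% of the 105 at 2 or more were higher in male pupae than in adult tissues. Of the embryo-higher probes, 21.1% of 1069, 35.8% of 165 and 48.0% of 25 were higher in the adult tissues. All of the 105 and 19 of the 25 lay in the brightest bin of mean signal. The part of signal level in these rises was not tested. At the 105 strongest pupa-higher probes the median log2 signal was 6.70 in embryos, 9.53 in female, 9.33 in male and 9.40 in mixed-sex pupae, 7.10 in male heads and 7.11 in male abdomens. At the 25 strongest embryo-higher probes it was 9.04 in embryos, 6.74 in female, 6.66 in male and 6.599 in mixed-sex pupae, and 7.02 in both heads and abdomens.

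**Figure D5:**
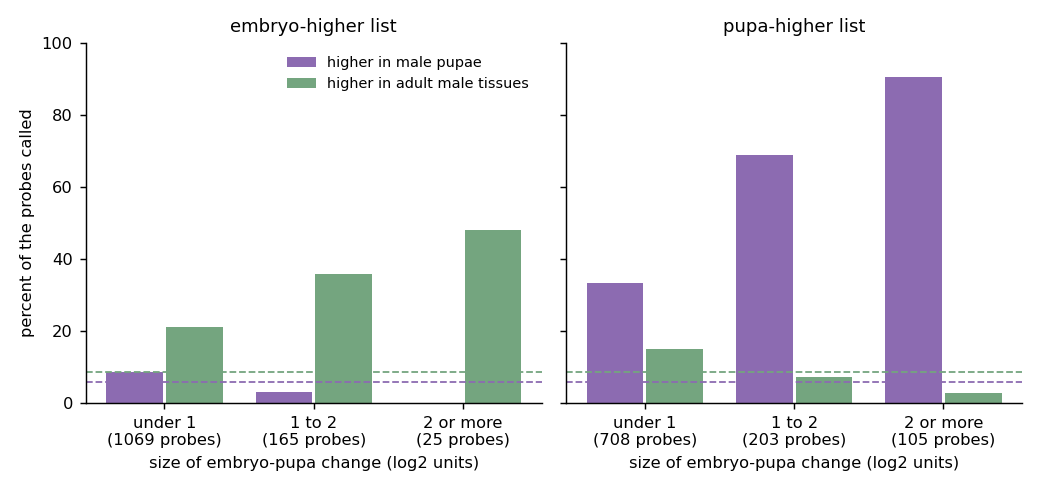
Percent of the embryo-higher (left) and pupa-higher (right) probes called higher in male pupae (purple) or in adult male tissues (green). Adult tissues stand for the mean of heads and abdomens. Probes are split by the size of their change between embryos and female pupae. Dashed lines mark the 5.8% and 8.67% of all probes. The purple bars on the right rise from 33.5% to 90.5% and the green bars on the left from 21.1% to 48.0%.

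Male pupae had 3 of 4 samples on bright arrays and the adults none. On dim arrays alone, where the 1 male pupal sample has no spread of its own and is assumed to vary like the other groups, 41.5% of the pupa-higher probes were higher in male pupae against 2.55% of all, and 7.33% of the embryo-higher probes were higher in adults against 2.84% of all. Scaling to the 75th percentile moved the median of all probes in this contrast from 0.0019 to -0.18, and 30.5% of its embryo-higher probes were then higher in adults against 24.0% of all probes, while 51.9% of its pupa-higher probes were higher in male pupae against 4.94%. Of the strongest embryo-higher probes, 1 of 11 was higher in adults in Cy5 samples alone, against 12 of 25 in all samples. The adult-higher share of all probes was 4.21% in Cy5 samples alone and 8.67% in all samples.

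Single probes showed these patterns plainly. All 12 of these pupa-higher probes, the largest complete and without overlap, were higher in male pupae than in the mean of heads and abdomens. Female pupae had 10.09 ± 0.20 at probe 8495 and male pupae 10.42, against 6.13 ± 0.27 in embryos (SD, n = 4), 6.16 in heads and 6.15 in abdomens, and its change from adults to male pupae was 4.27 (SE 0.18, limma adjusted p = 4.43e-13). Probe 10821 differed little between pupae and abdomens, with means of 11.67 in male pupae, 9.37 in heads and 11.75 in abdomens. Probe 6238, the probe of the pupa-higher list with the largest change from adults to male pupae, had 13.15 and 13.24 in the 2 female pupal samples with a usable spot, 13.70 in both of the 2 usable male pupal samples, and means of 7.44 in heads and 7.29 in abdomens, with 3 usable samples each. Its spot was the brightest in 1 of those 2 female and in both male pupal samples, so these values are the top of the normalized scale and cannot order the sexes. Embryos lay between, at 9.42, 8.86, 10.57 and 10.51. Probe 10859 had 12.98, 12.00 and 13.43 in the 3 usable female pupal samples and 9.46, 6.46, 8.89 and 8.91 in embryos, and its change of -4.37 had a large error (SE 0.83, limma adjusted p = 0.00100). Embryo replicate 2 was the low sample there, female pupae replicate 4 had no usable spot, and 13.43 was the top of the scale in female pupae replicate 3.

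Of the 12 largest embryo-higher probes, 7 were higher in adult tissues than in male pupae and 5 did not pass that test. Probe 10136 had 10.91 ± 0.45 in embryos (SD, n = 4), 7.63 in female, 7.60 in male and 7.78 in mixed-sex pupae, and then 11.21 in heads and 10.88 in abdomens, so that adults and embryos were both over 2 units above all 3 pupal groups. Probe 10523 had the same shape, with 9.05 in embryos, 6.38 to 6.47 in the pupal groups, 10.25 in heads and 9.23 in abdomens. The changes from adults to male pupae were -3.45 (SE 0.20, limma adjusted p = 2.59e-11) and -3.36 (SE 0.19, limma adjusted p = 1.66e-11). Probes 16329, 10037, 11550, 8079 and 7800 were also lower in male pupae than in adults, with changes from -2.60 to -1.504. All 7 had the Cy3 embryo pair above the Cy5 embryo pair. Over the 296 embryo-higher probes complete in embryos and higher in adult tissues, the Cy3 pair lay above at 30.4% and the Cy5 pair at 32.8%. Over all probes these shares were 31.0% and 27.1%.

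Probe 5416 was high in embryos alone among these groups, at 9.33 ± 0.36 (SD, n = 4) against group means of 6.92 to 7.19 elsewhere. Probe 7894 had 9.05 ± 0.97 in embryos (SD, n = 4) and 6.70 to 7.03 elsewhere, with 7.84, 8.69, 9.79 and 9.88 in the embryo samples. At 7041 the means outside embryos were 6.09 to 6.34. Probe 14901 had 10.40 in embryos, 7.38 to 7.47 in the pupal groups, 7.16 in heads and 6.58 in abdomens.

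Heads and abdomens, whose comparison also shares arrays but no sample with this one, separated the 2 lists less. Over all probes 19.1% differed, 7.57% being higher in heads and 11.5% in abdomens. Of the embryo-higher probes 127 were higher in heads (10.1%) and 188 in abdomens (14.9%), both slightly above the share of all probes. Of the pupa-higher probes 168 were higher in heads (16.5%), or 9.83% of all head-higher probes, and 117 in abdomens (11.5%). With scaling to the 75th percentile, which moved the median of all probes in this contrast from 0.05 to 0.22, the 4 counts were 27, 76, 52 and 71. The lists then held 577 embryo-higher and 727 pupa-higher probes. With cyclic loess, where that median was 0.016, the counts were 17, 83, 58 and 67, in lists of 899 and 908 probes. Both scalings turned the order of the head and abdomen counts in the pupa-higher list. The shares of all probes called in heads and abdomens under these scalings were not read, so the counts cannot be set against them.

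Probe 9797 joined a pupal and a head signal. It had 6.77, 7.13, 6.23 and 6.31 in embryos and 9.33, 9.24, 8.45 and 9.19 in female pupae (change -2.44, SE 0.23, limma adjusted p = 6.87e-08), and group means of 11.76 in heads and 6.76 in abdomens. Probe 10230 joined a pupal and an abdominal one, with 6.53, 6.89, 6.89 and 6.90 in embryos, 7.80, 8.82, 8.79 and 7.95 in female pupae, and group means of 11.51 in male pupae, 7.08 in heads and 13.02 in abdomens. Probe 9295 differed less between the stages, from 7.22 ± 0.12 in embryos to 7.86 ± 0.20 in female pupae (SD, n = 4 each), while abdomens had 10.97 and heads 7.31. Probe 5712, at 12.47 in heads and 6.40 in abdomens, had 5.96, 7.61, 6.06 and 6.11 in embryos and 7.12, 7.75, 8.10 and 7.28 in female pupae. The highest embryo sample and the highest pupal sample there, replicates 2 and 3, were those that shared arrays with head samples, and the part of this in the values was not tested. Its change between the stages, -1.13 (SE 0.34, limma adjusted p = 0.0376), did not pass without embryo replicate 1, 3 or 4 or female pupae replicate 2 or 3 (adjusted p = 0.104 to 0.149).

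Among embryo-higher probes, 14660 had 8.74 ± 0.42 in embryos, 7.43 ± 0.15 in female pupae (SD, n = 4 each), 9.03 in heads and 11.26 in abdomens. Probe 20635 had 6.43 ± 0.16 in embryos, 5.93 ± 0.11 in female pupae (SD, n = 4 each), 8.18 in heads and 5.90 in abdomens. In both, an adult tissue exceeded the embryos. Probe 6747, of the pupa-higher list, had 6.29, 7.27, 6.29 and 6.20 in embryos, 7.21, 7.42, 7.91 and 7.30 in female pupae, and group means of 10.07 in heads and 8.94 in abdomens. Its highest embryo and pupal samples, replicates 2 and 3, again shared arrays with head samples, and the part of this was not tested.

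The pupal side without male RNA was set beside the other pupae. Embryos were compared with female, mixed-sex and male pupae, and these 3 comparisons share the embryo samples. They called 10.1%, 13.5% and 16% of all probes, and female and male pupae differed at 5.07%. Over the 1259 embryo-higher probes the median change was 0.58 against female, 0.61 against mixed-sex and 0.62 against male pupae. Over the 1016 pupa-higher probes it was -0.68, -0.49 and -0.43, and female pupae were above male pupae by a median of 0.25, against 0.02 over all probes. The female samples chose these probes, which favours higher values in female than in other pupae. At the same 12 pupa-higher probes female minus male pupae ran from -0.33 to 0.71, with limma adjusted p of at least 0.0764. At the 12 largest embryo-higher probes it ran from -0.25 to 0.20, with limma adjusted p of at least 0.543.

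Probe 10230 is one where the choice of pupae mattered most among the probes described. Its change was -1.54 (SE 0.26, limma adjusted p = 3.28e-04) against female, -3.86 against mixed-sex and -4.71 against male pupae, and female minus male pupae was -3.17 (limma adjusted p = 8.67e-08). Probe 4578 had 7.29, 6.83, 7.81 and 8.07 in embryos and 6.76, 6.57, 6.53 and 6.67 in female pupae, and was higher in embryos by 0.87 (SE 0.26, limma adjusted p = 0.0330). Its change was -0.23 against male pupae, and female minus male pupae was -1.09 (limma adjusted p = 0.00970). The call against female pupae did not pass without embryo replicate 3 or 4 or any 1 of the 4 pupal samples (adjusted p = 0.0511 to 0.155).

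Other probes chosen for their readings in males rested on few samples at this stage contrast. Probe 14587, with 9.96 in heads and 6.83 in abdomens, changed by 0.58 between embryos and female pupae and did not pass without embryo replicate 2, 3 or 4 or female pupae replicate 1, 2 or 4 (adjusted p = 0.0530 to 0.144). Probe 8094, with 8.63 in abdomens and 6.45 in heads, changed by 0.75 and did not pass without embryo replicate 3 or 4 or female pupae replicate 1, 3 or 4 (adjusted p = 0.0532 to 0.128). Probe 5551, with 8.30 in male pupae and 7.10 in heads, changed by 0.52 and did not pass without embryo replicate 1 or 2 or any 1 of the 4 pupal samples (adjusted p = 0.0604 to 0.117). At the edge of the threshold, probes 10429 (0.28) and 6873 (-0.29) lay just inside, with adjusted p = 0.04996 and 0.04998, and probes 4179 (0.38) and 1098 (0.25) just outside, with 0.05004 and 0.05009.

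Calls were spread over the array. In 5 bands of rows 9.28% to 11.0% of the probes were called, and in 5 bands of columns 8.37% to 11.2%. Embryo-higher probes made up 4.30% to 6.56% of the row bands and pupa-higher probes 4.27% to 4.98%.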

How the data were processed

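Each sample has a scanner table of linear intensity values per spot, deposited by the authors uncorrected and not normalized, per the file headers: mean signal, mean and median local background, and a quality flag that the headers do not explain. The authors also deposited natural log values (mean signal less mean background, unscaled, by comparison with the scanner tables), used as an alternative. The sources used here name no image software. The labels give total RNA, whereas the series text speaks of unamplified mRNA.

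Normexp with an offset of 50 (limma 3.58.1, R 4.3.3) took the median local background off the mean signal, flagged spots were left out (at 1338 probes in at least 1 sample), and log2 values were quantile normalized over 24 samples. A probe was above the detection level where its net signal exceeded 2 SD of the sample's spot backgrounds. A linear model with 6 group means and a dye term (17 residual degrees of freedom) was fitted to each probe, with an intensity trend in the moderated variances, and Benjamini-Hochberg adjusted p was called at 0.05 over all 22575 probes. Changes are embryos minus female pupae. Levels are dye-adjusted. Identical flag patterns paired samples into 12 arrays, which were split into bright and dim at the largest gap in mean signal.

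Named probes were the 12 largest changes per direction past the threshold, complete and without overlap, then the 2 largest per direction and list in each of the 2 male contrasts, then 2 on each side of the threshold. The members and lists were chosen with earlier results of these data known. The code was tested on simulated data. Alternatives covered background, scaling, filters, samples, dye, blocks, brightness, thresholds and samples left out. Leaving out the shared array, and the comparison of embryo samples by dye, were added after the data were seen. No column links the probes to the 17872 reference genes supplied, so the planned gene lists were not read.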

Additional observations from a re-analysis of the deposited data

Results flagged for a closer look

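Among 60 Dixon tests for a lone sample within a group of 4, made at the 24 largest changes among complete probes without overlap and at the medians of both lists, 3 were positive, where about 5% are by chance. Probe 7041 read 7.10 log2 units in female pupae replicate 1, while replicates 2 to 4 read 6.03 to 6.15, and this sample shared its array with an embryo sample. At probe 1096 female pupae replicate 4 had 11.93, against 10.68 to 10.86. At probe 18585 female pupae replicate 3 had 11.96, against 11.25 to 11.29. The cause was not tested for any of the 3, and all 3 probes kept their call without that sample.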

How the results depend on the processing

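Across 31 alternatives no probe called in both settings changed sign, and the 24 largest changes among complete probes without overlap kept their calls. Probe 10859 (-4.37), outside these, lost its call in Cy5 samples alone (adjusted p = 0.156). In the order all calls, embryo-higher, pupa-higher, calls also past the threshold between heads and abdomens, and calls also past it between male pupae and adults, the values were 2275, 1259, 1016, 600 and 993. Values over 1.5 times away follow, and their cause was not tested except where fewer samples or a stricter rule sets them. Scaling to the 75th percentile gave 1304, 577, 226 (heads and abdomens) and 604 (male pupae and adults), and cyclic loess gave 225 and 576 for the last pair. The 8 samples alone gave 1385 and 658. The array as a random block gave 1125 between heads and abdomens and array brightness as a term 923. Bright arrays alone, with 1 female pupal sample assumed to vary like the other groups, gave 601, 290 and 311; dim arrays alone gave 453 between male pupae and adults. Cy3 samples alone gave 796 embryo-higher probes, and Cy5 samples alone gave 1244, 820, 424, 129 and 295. An adjusted p of 0.01 gave 806, 330 and 625 for embryo-higher, tissue and male stage counts. A change of at least 1 log2 unit gave 498, 190, 308, 160 and 329. Without both samples of the shared array 826 were embryo-higher. Leaving out 1 sample at a time gave 1913 to 2129, 1003 to 1240, 866 to 1029, 514 to 591 and 867 to 963. The replicate number as a block gave 2149 calls. Same-numbered embryo and pupal samples correlated in their deviations at 0.558, -0.150, -0.0438 and 0.292, and samples of unlike number at -0.574 to 0.549. The samples numbered 1 shared an array, so number and array cannot be told apart there. Whether the numbers pair the samples was not tested further. The low signal of embryo replicate 2 limits dim probes.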
